A study of Homo sapiens with 6 samples.

Results

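GANAB, B4GALT1 and LGALS1 are 3 genes for making and reading the sugar chains of glycoproteins, taken by their gene symbols from the 402 genes of a table that compared CAL-27 cells with a knockdown of YTHDC2 with NC cells. The genes were chosen by measured FPKM values, namely a high level and a higher mean in shYTHDC2 than in NC, so the difference between the groups is described here and not tested. CAL-27 is a cell line from an oral squamous cell carcinoma, and YTHDC2 is an RNA helicase that recognises m6A (N6-methyladenosine), a methylated base of RNA. RNA sequencing was done on 3 shYTHDC2 libraries, which carry the knockdown, and on 3 NC libraries, the group it was set against. Both groups are the same cell line with no further treatment named in the labels. The sample titles number the libraries of each group as biological replicates ("bio rep"), without saying whether they came from separate cultures. The sources used here do not give the number of constructs or clones behind the knockdown. The table gives FPKM, fragments scaled to transcript length and library total, and the depth of each library is unknown.

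N-glycans are assembled on a lipid carrier, moved as a block onto asparagines of new proteins in the endoplasmic reticulum (ER), trimmed there, and rebuilt in the Golgi. GANAB is the catalytic alpha subunit of glucosidase II, the ER enzyme that trims inner glucoses and so sets when a folding glycoprotein binds and leaves the lectin chaperones calnexin and calreticulin. B4GALT1 is a Golgi galactosyltransferase that adds galactose to N-acetylglucosamine and so makes N-acetyllactosamine. LGALS1 encodes galectin-1, a small lectin, found in the cytosol and secreted, that binds N-acetyllactosamine on cell-surface and matrix glycoproteins. An enzyme of trimming, an enzyme of outer-chain synthesis and a reader of the finished chain therefore stand side by side.

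In GRCh38, with positions from GENCODE release 29, GANAB (ENSG00000089597) lies on the minus strand of chromosome 11 from 62624826 to 62646726. B4GALT1 (ENSG00000086062) lies on the minus strand of chromosome 9 from 33104082 to 33167356, and LGALS1 (ENSG00000100097) on the plus strand of chromosome 22 from 37675608 to 37679806. No other annotated gene overlaps GANAB or LGALS1, while B4GALT1 shares 382 bases at its 5′ end with the antisense gene B4GALT1-AS1. Reads in those 382 bases cannot be assigned with certainty, since the strand setting of the authors' quantification is not given in the sources used here. B4GALT1-AS1 itself was not in the table. Within 250 kb on either side, 33 other coding genes surround GANAB, 8 surround B4GALT1 and 18 surround LGALS1. Of these, only ELFN2, near LGALS1, was among the 402 genes.

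Because YTHDC2 binds m6A, the transcripts are shown at the core of the m6A consensus, GGACT in DNA letters, searched on the transcript strand only. Only these letters were searched, so other forms of the consensus are not in the counts below. From the GENCODE principal transcript of each gene, the match nearest the stop codon is printed with 10 bases on each side and the match in capitals.

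GANAB, exon 16, coding, chr11:62629198-62629222, minus strand: ggggctggtgGGACTttccttctgt
B4GALT1, exon 3, coding, chr9:33120530-33120554, minus strand: aagccttgaaGGACTatgactacac
LGALS1, exon 1, 5′ UTR and start codon, chr22:37675683-37675707, plus strand: acatcctcctGGACTcaatcatggc

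The GANAB transcript of 3608 bases held 6 matches, all within the coding region. The B4GALT1 transcript of 4201 bases held 4, of which 3 were coding and 1 lay in the 3′ UTR. The LGALS1 transcript, only 560 bases long, held 1 match, in the 5′ UTR, starting 10 bases before the start codon. Per kilobase these are 1.66 for GANAB, 0.952 for B4GALT1 and 1.79 for LGALS1. The median over 19659 coding genes, 1 transcript each, was 0.933 per kilobase, with an interquartile range of 0.530 to 1.42, and 87.9% of them held a match. Among the 290 coding genes of the table the median was 1.00 and 91.7% held a match. GANAB and LGALS1 were thus above the upper quartile of all coding genes and B4GALT1 was near the median, although for LGALS1 the value rests on 1 match. Methylation of these sites was not measured, and a match shows only that the letters are present.

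**Figure D1:**
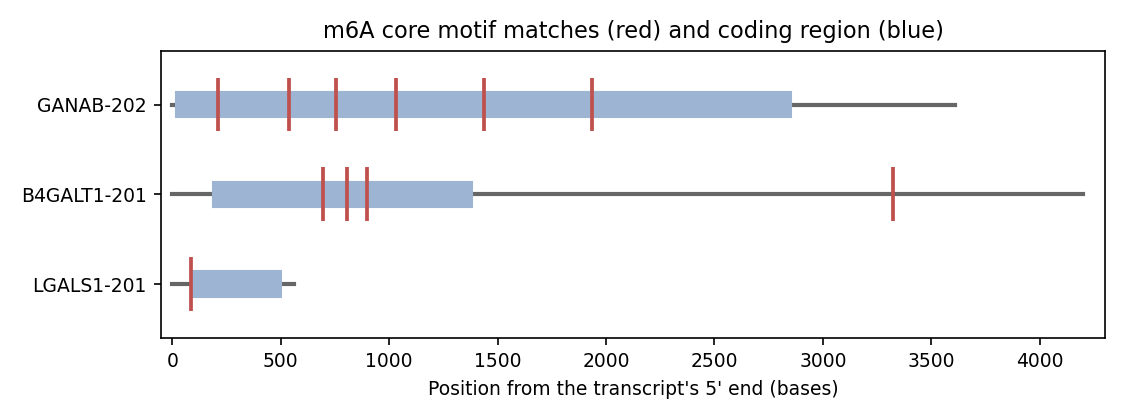
Matches to the m6A core motif (red ticks) along the principal transcript of each gene, in bases from the 5′ end, with the coding region in blue and the untranslated parts as a grey line. The 6 matches of GANAB are spread over its coding region, B4GALT1 has 3 in its coding region and 1 in its long 3′ UTR, and LGALS1 has 1 just before its coding region.

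The promoters are printed as a description of the genes, whose shared direction was fixed by how they were chosen. Each window runs from 250 bases before to 50 bases after a RefSeq start site (GRCh38.p14), and capitals mark GC boxes (GGGCGG or CCGCCC) and CCAAT boxes (CCAAT or ATTGG). The table of promoters held GANAB with 1 window and B4GALT1 with 2, of which the upstream one is shown.

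GANAB, chr11:62646564-62646863, minus strand: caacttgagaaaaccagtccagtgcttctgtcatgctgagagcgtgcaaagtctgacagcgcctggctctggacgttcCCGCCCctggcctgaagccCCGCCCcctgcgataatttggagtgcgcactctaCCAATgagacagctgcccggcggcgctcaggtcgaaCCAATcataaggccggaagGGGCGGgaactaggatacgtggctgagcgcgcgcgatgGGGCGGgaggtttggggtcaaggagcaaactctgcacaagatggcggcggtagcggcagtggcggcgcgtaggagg
B4GALT1, chr9:33167287-33167586, minus strand: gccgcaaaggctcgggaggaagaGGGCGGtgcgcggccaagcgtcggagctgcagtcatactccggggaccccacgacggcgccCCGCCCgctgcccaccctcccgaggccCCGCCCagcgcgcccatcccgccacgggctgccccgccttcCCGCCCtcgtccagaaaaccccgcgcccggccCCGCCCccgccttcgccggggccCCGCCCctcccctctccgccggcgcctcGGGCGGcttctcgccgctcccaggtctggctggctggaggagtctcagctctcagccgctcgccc

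The GANAB window held 4 GC boxes and 2 CCAAT boxes, and the B4GALT1 window held 7 GC boxes and 0 CCAAT boxes. Over 34796 distinct promoter windows of the same length, 44.9% held a GC box and 34.6% a CCAAT box. Searched on both strands, neither window held a TATA box (TATAAA, in 11.6% of all windows), an AP-1 site (TGACTCA, 4.96%), an E-box (CACGTG, 7.20%) or the ER stress response element (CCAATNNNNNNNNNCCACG, 0.0776%), whose first 5 letters are those of the CCAAT box. Their GC content was 62.7% for GANAB and 78.3% for B4GALT1, against a median of 58.7% over all windows. The downstream window of B4GALT1 held 6 GC boxes and none of the other motifs. It overlaps the window shown and shares some of its GC boxes, so the 2 counts are not to be added.

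The trimming enzyme was the most abundant of the 3. GANAB stood at 120, 117 and 125 FPKM in the shYTHDC2 libraries, against 47.9, 45.9 and 47.3 FPKM in the NC libraries. Every shYTHDC2 library was above every NC library, as for 90.5% of the genes of the table, and the lowest shYTHDC2 value was 2.44 times the highest NC value. The means were 121 ± 4.4 FPKM in shYTHDC2 and 47.0 ± 1.1 FPKM in NC (SD, n = 3 each), a 2.57-fold difference. On the log2(FPKM + 1) scale used for all differences here, shYTHDC2 was higher by 1.34 (SE 0.035). In RNA from whole cultures, a change in the share of expressing cells and a change in RNA per cell cannot be told apart.

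B4GALT1, the galactosyltransferase, stood at 72.3, 73.7 and 68.4 FPKM in the shYTHDC2 libraries, against 30.3, 31.0 and 30.7 FPKM in the NC libraries. The NC libraries were nearly level, with a coefficient of variation of 1.23%, against 3.83% in shYTHDC2. The means were 71.5 ± 2.7 FPKM in shYTHDC2 and 30.6 ± 0.38 FPKM in NC (SD, n = 3 each), a 2.33-fold difference and 1.20 on the log2 scale (SE 0.033), although -0.12 when libraries were scaled on the listed genes themselves. The groups did not overlap, as for 90.5% of the genes of the table, and this was the smallest difference of the 3.

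LGALS1, the lectin, stood at 74.2, 82.5 and 72.0 FPKM in the shYTHDC2 libraries, against 25.4, 22.9 and 25.6 FPKM in the NC libraries. Replicate 2 was the highest shYTHDC2 library and replicate 2 was also the lowest NC library, and the spread was wider than for the enzymes, with coefficients of variation of 7.30% in shYTHDC2 and 6.15% in NC. The means were 76.2 ± 5.6 FPKM in shYTHDC2 and 24.6 ± 1.5 FPKM in NC (SD, n = 3 each), a 3.09-fold difference and 1.59 on the log2 scale (SE 0.077). Its groups did not overlap, as for 90.5% of the genes of the table, with the lowest shYTHDC2 value 2.82 times the highest NC value. Its transcript is the shortest of the 3, and FPKM of short transcripts depends more on how the effective length is set, a setting not given in the sources used here.

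**Figure D2:**
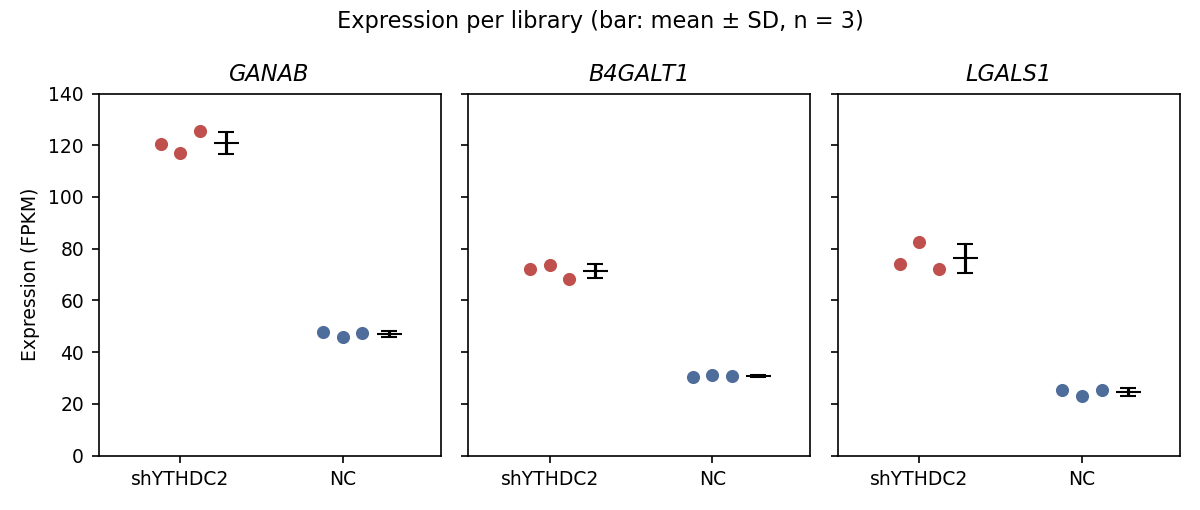
Expression of GANAB, B4GALT1 and LGALS1 in FPKM (linear axis from 0) in each shYTHDC2 library (red points, left) and each NC library (blue points, right), with the mean and SD beside them. Each gene has its 3 shYTHDC2 points above its 3 NC points on the deposited FPKM scale, as for 90.5% of the table's genes. For B4GALT1 the sign of the difference turned under scaling on the listed genes. LGALS1 has the widest spread for its level.

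All 3 genes had groups that did not overlap, as did 364 of the 402 genes of the table and 99.5% of the 187 genes whose mean reached 1 FPKM in either group. The authors' deposited table marks 100% of its genes as up and significant, with a smallest fold of 2.00, so the direction was fixed by how the genes were listed, and nothing is read from it or from the separation. The values hold on the FPKM scale of the table. Where the libraries were scaled to one another on the listed genes, which takes a typical listed gene as equal between groups, the log2 difference was 0.28 (SE 0.076) for LGALS1, 0.021 (SE 0.031) for GANAB and -0.12 (SE 0.047) for B4GALT1, where the sign turned. That scaling moved the median log2 difference of the 187 genes from 0.88 to -0.046, so these values say how far each gene stood from the other listed genes.

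Ratios between the genes within a library do not depend on how libraries are scaled. LGALS1 was at 1.03, 1.12 and 1.05 times the FPKM of B4GALT1 in the shYTHDC2 libraries, against 0.841, 0.738 and 0.834 times in the NC libraries. The order of the genes by FPKM therefore differed between the groups, with LGALS1 above B4GALT1 in all 3 shYTHDC2 libraries and below it in all 3 NC libraries. In the shYTHDC2 group, the levels of these neighbours, 76.2 ± 5.6 FPKM for LGALS1 and 71.5 ± 2.7 FPKM for B4GALT1, differed by less than the SD of LGALS1. In NC, 24.6 ± 1.5 FPKM for LGALS1 lay further from 30.6 ± 0.38 FPKM for B4GALT1 than the SD of either gene. GANAB was the highest in every library.

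The ratio of LGALS1 to GANAB was 0.616, 0.706 and 0.574 in the shYTHDC2 libraries, against 0.531, 0.499 and 0.540 in the NC libraries. Its means were 0.632 ± 0.068 in shYTHDC2 and 0.523 ± 0.022 in NC (SD, n = 3 each), so LGALS1 was higher relative to GANAB as well, without overlap. The ratio of B4GALT1 to GANAB was 0.601, 0.631 and 0.545 in the shYTHDC2 libraries, against 0.631, 0.676 and 0.648 in the NC libraries. These groups came within rounding of each other and did not overlap either. Their means were 0.592 ± 0.043 in shYTHDC2 and 0.652 ± 0.023 in NC. Of the 3 ratios this one differed least between the groups. The ratios come from the same contrast that chose the genes and were not tested. How often the ratios of other pairs of listed genes separate was not counted, so nothing is read from the lack of overlap.

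**Figure D3:**
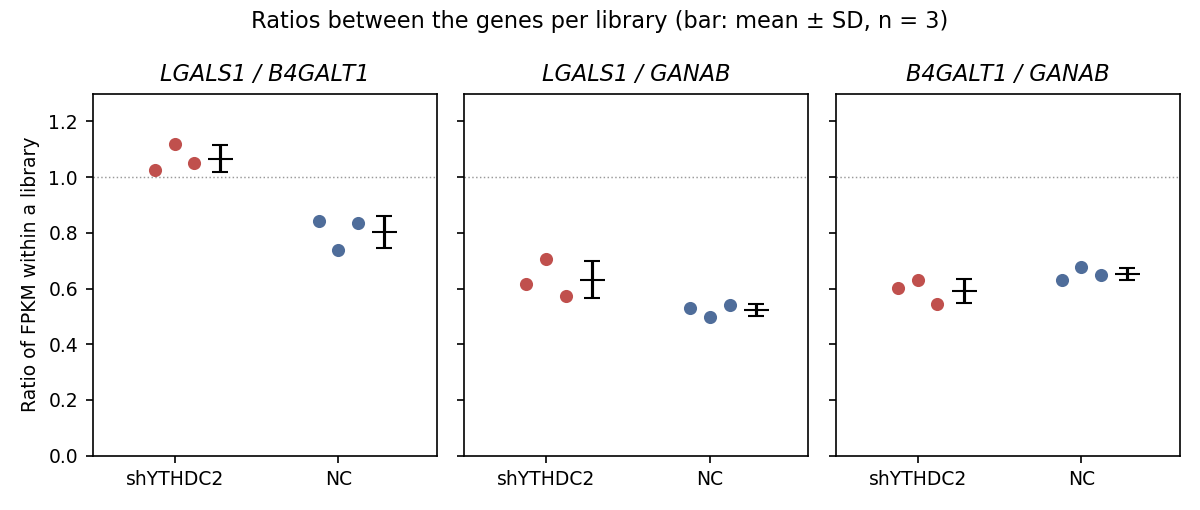
Ratio of FPKM between each pair of the 3 genes within each shYTHDC2 library (red, left) and each NC library (blue, right), on a linear axis from 0, with mean and SD and a dotted line at a ratio of 1. LGALS1 over B4GALT1 lies above 1 in shYTHDC2 and below 1 in NC, while B4GALT1 over GANAB nearly meets between the groups.

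Among the 187 genes whose mean reached 1 FPKM in either group, by mean FPKM in shYTHDC2 GANAB was at rank 2, below the chemokine gene CXCL1 (153 FPKM), LGALS1 at rank 4 and B4GALT1 at rank 6. By mean FPKM in NC GANAB was at rank 2, LGALS1 at rank 8 and B4GALT1 at rank 6. A high level was part of how the genes were chosen, so these ranks describe them and nothing is read from them. The 3 genes together summed to 269 ± 3.9 FPKM in shYTHDC2 and 102 ± 2.2 FPKM in NC. This was 12.2% ± 0.27 of all FPKM of the table in shYTHDC2 and 11.9% ± 0.23 in NC (SD, n = 3 each), a difference of about the size of the SDs.

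By log2 difference, LGALS1 was at rank 12 of 187, GANAB at rank 23 and B4GALT1 at rank 37, where the median of the 187 genes was 0.88. These ranks depend on the pseudocount, which holds down the differences of low genes. With 0.1 FPKM in place of 1 FPKM the ranks of LGALS1, GANAB and B4GALT1 were 35, 57 and 88. Among the 74 genes whose mean reached 5 FPKM in either group, where the pseudocount matters less, they were 10, 18 and 29. In the authors' deposited table the folds are 3.09 for LGALS1, 2.57 for GANAB and 2.33 for B4GALT1. The median fold there, over the 186 of the 187 genes with signal in NC, was 2.40, which lies between B4GALT1 and GANAB.

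**Figure D4:**
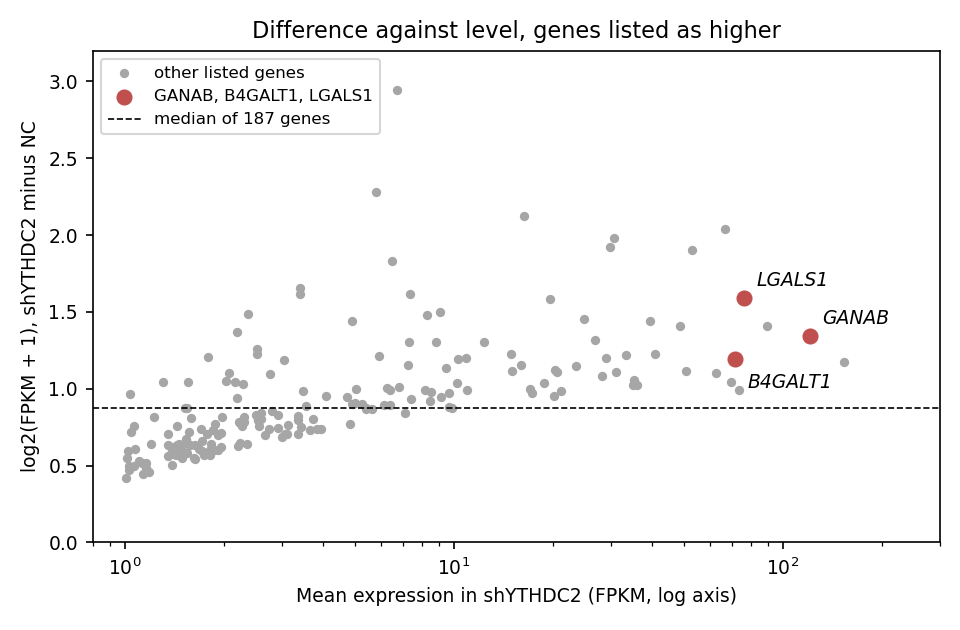
Difference of log2(FPKM + 1), shYTHDC2 minus NC, against mean FPKM in shYTHDC2 (log axis) for the 187 genes whose mean reached 1 FPKM in either group, with GANAB, B4GALT1 and LGALS1 in red and the median of 0.88 as a dashed line. The 3 genes, chosen in part for a high level, lie at the right among the most abundant genes. They lie above the median difference on this scale. For B4GALT1 this depends on the measure. It was at rank 88 with a pseudocount of 0.1 FPKM, still above the median. Its fold of 2.33, a ratio of means, was below the median fold of 2.40.

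The table held few genes of the rest of the pathway, as it did of all coding genes, 290 of 19659. The 9 gene lists used here hold 157 symbols, of which 154 are not GANAB, B4GALT1 or LGALS1, and 2 of these 154 were in the table. That share is near the one over all coding genes, so nothing about the pathway is read from the missing genes. None of the 24 genes that build the lipid-linked precursor and none of the 12 oligosaccharyltransferase subunits, which transfer it, were listed. In the ER trimming and quality-control list the table held GANAB alone of 22 genes, without its partner PRKCSH, the beta subunit of glucosidase II, and without MOGS, the glucosidase that acts before it. None of 15 genes for Golgi mannose trimming and branching, none of 22 for sialic acid and terminal fucose, and none of 7 for other glucosidases were listed. B4GALT1 was the only listed gene of 15 for galactose and lactosamine extension, without B4GALT2 to B4GALT7, and LGALS1 the only listed galectin of 17. The table holds only genes at least 2.00-fold higher and marked as significant. An unlisted gene may be at the same level in both groups, higher by less, higher without being marked as significant, lower, or not detected.

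The 2 other genes came from a list of 23 glycoproteins known to bind galectin-1. FN1, the matrix protein fibronectin, stood at 22.8, 20.7 and 19.9 FPKM in the shYTHDC2 libraries, against 9.87, 11.1 and 9.66 FPKM in the NC libraries. MCAM, an adhesion molecule of the immunoglobulin superfamily, stood at 7.98, 8.79 and 8.84 FPKM in the shYTHDC2 libraries, against 3.96, 3.58 and 3.97 FPKM in the NC libraries. Both had groups that did not overlap, as did 99.5% of the 187 genes. Their folds, 2.07 for FN1 and 2.22 for MCAM, were below the median fold of 2.40. Their median difference of log2(FPKM + 1), 0.98, was above the 0.88 of the 187 genes. Their place among the listed genes thus differs between these measures.

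The annotation columns of the table gave the KEGG pathway N-glycan biosynthesis to 2 genes, GANAB and B4GALT1, among the 401 genes read. Among the 354 genes whose GO terms were read, 5 carry the term carbohydrate binding, among them GANAB and LGALS1, and 13 the ER lumen, again with both. The GO terms of B4GALT1 were not used here.

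Likeness of profile was measured as the root mean square difference, over the 6 libraries, of log2(FPKM + 1) centred on each gene's mean. Nearest to B4GALT1 were CXCL1 (0.026), MESD, an ER chaperone of lipoprotein receptors (0.043), and the kinase gene CDK14 (0.048). Nearest to GANAB were LCN2, which encodes an iron-siderophore-binding protein (0.055), the kinase gene MKNK2 (0.062) and the lipase gene MGLL (0.064). Nearest to LGALS1 were the collagen gene COL8A1 (0.081), DYSF, which encodes the membrane repair protein dysferlin (0.094), and the adhesion molecule L1CAM (0.095). No member was among the 3 nearest of another member. The measure takes in the difference between the groups, the contrast that chose the genes, and so in part restates it. For B4GALT1 the log2 difference was 1.20, against 1.17 for CXCL1, 1.19 for MESD and 1.19 for CDK14. With a pseudocount of 0.1 FPKM, 2 of these 9 neighbours were named again, and with a floor of 5 FPKM 7 were, so most of the names rest on the pseudocount.

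The libraries of each group were alike, with a median coefficient of variation over the 187 genes of 9.16% in shYTHDC2 and 13.0% in NC, and the FPKM of the table summed to 2176 to 2229 per library in shYTHDC2 and 852 to 871 in NC. YTHDC2 itself was not in the table and was not analysed here, so the labels were not checked against it. Of the marker lists, squamous keratinocyte (12 genes), fibroblast (10) and leukocyte (12) had 0 genes in the table. This says nothing about the label or about other cell types, since genes that are unchanged or lower in shYTHDC2 are not listed. The endothelial list had 2 of 10 genes, CDH5 and ESAM, whose FPKM summed to 3.32 to 4.26 in shYTHDC2 and 1.70 to 2.00 in NC, and the other markers of that list were not in the table. Their part in the values above was not tested.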

How the data were processed

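Expression was measured in 3 shYTHDC2 and 3 NC libraries of CAL-27 cells, grouped by the sample titles. The members and gene lists were chosen with earlier results of these data known. Libraries were dUTP-marked, from poly(A) RNA and read as paired ends, per the labels' protocols. GRCh38 and the tools HISAT2, fastp, edgeR and StringTie are named in the submitters' processing notes, with no version. Per the file headers, the authors deposited FPKM per library, a fold (a ratio), its log2, and p-value and q-value columns, for 402 genes. The fold equalled the ratio of mean FPKM, where 0.0001 replaced means of 0. The p and q values were not used. No counts or depths are given, so no counting interval was computed.

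Differences were computed as mean log2(FPKM + 1) in shYTHDC2 minus that in NC, with an SE from the SDs of the groups, in Python 3.11.15 with pandas 2.3.3 and numpy 2.4.6. No test was run, because the contrast chose the genes. Ranks and likeness used the 187 genes whose mean reached 1 FPKM in either group. The rule for named genes took the members, the listed genes of the gene lists and the 3 nearest profiles of each member. ELFN2 was named after its place was seen. No pair of libraries of a group shared an identical value above 0 (0 genes). The calculation was checked on simulated data. Transcripts came from GENCODE release 29, 1 per gene by APPRIS rank and then length, and promoters from RefSeq (GRCh38.p14). LGALS1 was not in the promoter table. Alternatives were other pseudocounts, filters and scaling, group medians, the replicate number as a block, and each library left out.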

Additional observations from a re-analysis of the deposited data

How the results depend on the processing

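The log2 differences of GANAB, B4GALT1 and LGALS1 kept their sign and moved by less than the SD between replicates under pseudocounts of 0.1 FPKM and none, under group medians and with each library left out. Left-out values ran from 1.32 to 1.37 for GANAB, 1.17 to 1.23 for B4GALT1 and 1.53 to 1.63 for LGALS1. Median-ratio scaling across the libraries gave 0.021 for GANAB, -0.12 for B4GALT1 and 0.28 for LGALS1, by the construction of that scaling. The count of 364 genes whose groups do not overlap was 364 to 375 with a library left out. Leaving out a library cannot lower this count, so that range does not check it. It was 186 of the 187 genes over the filter, where fewer genes were counted. Of the 9 nearest profiles, 2 were named again with a pseudocount of 0.1 FPKM and 7 with a floor of 5 FPKM. In a replicate block fit, the differences were the same by construction (1.34, 1.20 and 1.59 for GANAB, B4GALT1 and LGALS1), with SEs of 0.023, 0.031 and 0.11. The labels state no pairing, and the deviations from the group means of libraries with the same number correlated at 0.059, 0.15 and 0.073 over 187 genes, so the numbers were not taken as pairs. Depth is unknown, which limits the low genes most.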

Other observations

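A few other genes of the table handle sugars but are not annotated there to the KEGG pathway N-glycan biosynthesis. They were taken after their values were seen, by the KEGG and GO columns of the table. CHST14 and CHST2 encode Golgi sulfotransferases, enzymes that add sulfate to sugar chains. CHST14 stood at 17.3 ± 0.85 FPKM in shYTHDC2 and 8.31 ± 0.23 FPKM in NC, and CHST2 at 3.36 ± 0.12 FPKM in shYTHDC2 and 1.47 ± 0.052 FPKM in NC (SD, n = 3 each). Besides GANAB and LGALS1, the term carbohydrate binding was carried by MRC2, an endocytic collagen receptor of the mannose receptor family, at 1.83 ± 0.22 FPKM in shYTHDC2 and 0.808 ± 0.074 FPKM in NC. The secreted lectin gene ZG16B stood at 0.903 ± 0.19 FPKM in shYTHDC2 and 0.274 ± 0.032 FPKM in NC. The lectin receptor gene CLEC4M stood at 0.0119, 0.129 and 0.0545 FPKM in the shYTHDC2 libraries and was listed at 0 in all 3 NC libraries. In these genes, as in 90.5% of the 402 genes of the table, the groups did not overlap. ZG16B and CLEC4M had means below 1 FPKM in both groups, and for CLEC4M any signal lies above NC values of 0.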
